A study of Mus musculus with 10 samples.

Results

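The mouse left ventricle on day 5 after transverse aortic banding (TAB) is described here against days 3 and 7 of the same operation. TAB narrows the aorta and puts the left ventricle under pressure overload, and the study regards day 5 as a transitional day of the response. A gene was taken as standing apart on day 5 when its TAB value of day 5 lay outside both the day 3 and the day 7 value by more than those values differed from each other. By this rule 4784 of 16113 genes (29.7%) stood apart on TAB day 5, 2213 above and 2571 below the neighbouring days. The sham-operated hearts of days 3, 5 and 7 were read by the same rule as a control for change without banding.

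The study used male C57BL/6J mice that were 8 weeks old and weighed 20 to 25 g, and it banded or sham-operated them. Surgery was followed by tissue collection on day 3, 5, 7, 14 or 28, with 1 TAB and 1 sham left ventricle sample per day. Total RNA was labelled with Cy5 and hybridized to Mouse Whole Genome OneArray slides, 1 array per sample and 10 arrays in all. The number of mice behind a sample is not given in the sources used here. TAB and sham animals had the same strain, sex and starting age. Sham animals had no pressure overload. Each day therefore rests on 1 array per operation, no gene below has a replicate check, and day, animal and array cannot be told apart.

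Values are given as log2 normalized intensity, so that a difference of 1 is a 2-fold difference. The gap of a gene is the log2 distance from day 5 to the nearer of days 3 and 7. A spot was counted as found on an array when its deposited flag was not negative. No source used here explains the flag, and a negative flag was taken to mean, in the usual GenePix coding, that the software had not located the spot. The median raw intensity of the arrays lay between 34 and 57, and between 40.2% and 47.3% of the spots were not found. On TAB day 5 these values were 48 and 42.4%, whereas TAB day 3 was the dimmest array, with 34 and 47.3%. In bulk tissue, fewer cells of a type and less RNA per cell cannot be told apart.

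Pressure overload makes heart muscle cells grow without dividing, while fibroblasts, vascular cells and immune cells around them can divide or arrive from the blood. A resting adult heart burns mainly fatty acids, under the control of PPAR nuclear receptors, and a loaded heart is known to lower these genes and to deposit extracellular matrix. DNA replication genes are switched on together in dividing cells by E2F transcription factors. MHC class II genes are switched on together in antigen-presenting cells. The genes that stood apart on day 5 are described below in this order of roles, first those above and then those below the neighbouring days.

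Since each gene without ties has exactly 1 of any 3 days standing apart, the days share the genes out. In TAB, day 5 held the smallest share, 29.7%, against 37.1% for day 3 and 33.2% for day 7. In sham, day 5 held 33.1%, day 3 held 38.7% and day 7 held 28.2%. The study's view of day 5 rests on other measures, among them the correlation of gene intensity between TAB and sham, lowest on day 5. These shares within an operation do not measure that, and the distance from sham given further below comes nearer to it. A gap of at least 1 was reached by 458 genes on TAB day 5 (2.84%), 181 above and 277 below. Most of these gaps involved spots near background. Spots found on none of the 3 arrays accounted for 57 of the genes above and 177 of the genes below, and only 2 above and 6 below had spots found on all 3.

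For this reason, the genes were then limited to the 11210 (69.6%) whose spots were found on TAB days 3, 5 and 7. On TAB day 5, 1531 of them (13.7%) stood apart above and 1730 (15.4%) below. A gap of at least 0.58, which is about 1.5-fold, was reached by 56 genes above (0.5%) and by 141 genes below (1.26%). These numbers became 18 and 44 when 50 was added to the normalized intensity, which shrinks the gaps of dim genes. The same gap was reached by 120 genes above and 257 below on TAB day 3, and by 108 above and 145 below on TAB day 7. Day 5 thus had the fewest such genes above. Below, day 5 and day 7 were close, and their order turned among the 10677 genes found on all 6 arrays of days 3, 5 and 7 (132 on day 5, 109 on day 7) and over all genes (689 and 665).

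The same counts were taken in sham. Of the 11398 genes found on sham days 3, 5 and 7, 1962 (17.2%) stood apart above on day 5 and 1773 (15.6%) below. With a gap of at least 0.58 there were 183 genes above (1.61%) and 100 below (0.877%). Sham thus had more such genes above and fewer below. Of these found genes, 28.4% lay above in TAB and 64.7% in sham. Over all 16113 genes at the same gap the shares above were 39.3% and 47.2%, and at a gap of at least 1 they were 39.5% and 39.7%. The later middle days gave 52 genes above and 76 below on TAB day 7 between days 5 and 14, and 44 above and 83 below on TAB day 14 between days 7 and 28. In sham these counts were 44 and 46 for day 7, and 123 and 305 for day 14. Sham day 14 therefore exceeded TAB day 5 in both directions.

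**Figure D1:**
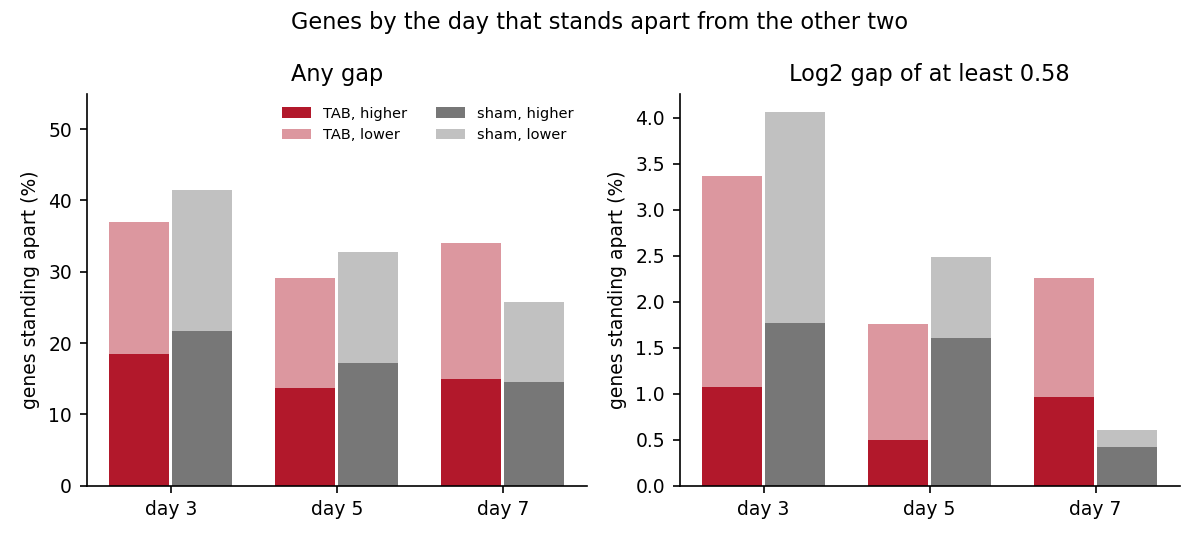
Share of genes (%) standing apart on day 3, 5 or 7 in TAB (red) and sham (grey), among genes found on the 3 arrays of the operation, with genes above the other days in dark and genes below in light colour. On TAB day 5 the share was 29.1% for any gap and 1.76% for a gap of at least 0.58, lower than on TAB days 3 and 7.

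The overlap of the TAB and sham genes of day 5 was counted next. Among the 10677 genes found on all 6 arrays of days 3, 5 and 7, 34 stood apart above and 132 below on TAB day 5 by at least 0.58. In sham, 167 of the 10677 stood apart above and 97 below by this gap (2.47% together), so few shared genes were to be expected. None of the 34 did so above in sham, and 1 of the 132 did so below in sham. That gene was Itgb6, an integrin subunit, with gaps of −0.67 in TAB and −0.96 in sham. Tmem82 stood apart in opposite directions, with −0.74 in TAB and 1.06 in sham. Over all 16113 genes, 446 lay above and 689 below in TAB by at least 0.58, against 580 and 650 in sham. Of these, 30 lay above and 61 below in both operations, and 45 above and 32 below in TAB lay the opposite way in sham.

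The genes that stood apart by at least 0.58 were mostly at the extreme of the whole TAB course. Of the 56 genes above, 52 (92.9%) had their highest TAB value of all 5 days on day 5, and 45 lay above all 5 sham arrays. Of the 141 genes below, 123 (87.2%) had their lowest TAB value on day 5, and 108 lay below all 5 sham arrays. Of all 11210 found genes, 3668 lay above and 3641 below all 5 sham arrays on TAB day 5. The rule fixes the order against days 3 and 7 but not against days 14 and 28. The genes were required to be found on TAB and not on sham arrays, and 34 of the 56 and 132 of the 141 were found on all 6 arrays of days 3, 5 and 7, so the filter bears on the count above sham. In sham, 168 of the 183 genes above and 82 of the 100 below were likewise at the extreme of the 5 sham days, and 127 of the 183 lay above and 78 of the 100 below all 5 TAB arrays.

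Limma was run on the 6 arrays of days 3, 5 and 7, with days 3 and 7 standing in for replicates and with the lone day 5 arrays assumed to vary like them. It called 0 of 16113 genes (0.0%) for TAB day 5 against days 3 and 7 at an adjusted p under 0.05, and 737 had an unadjusted p under 0.05. The lowest adjusted p from limma was 0.0754. For sham it called 1 gene (0.00621%), with 835 at an unadjusted p under 0.05. For the difference of the day 5 contrast between TAB and sham it called 0 genes (0.0%), with 793 at an unadjusted p under 0.05. Counts of calls under other settings of this fit ranged up to 6 in TAB. No p-value is given for a gene chosen by the rule.

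Of the genes found on all 3 TAB arrays, 8 had a gap of at least 1. Clu and Il1b lay above the neighbouring days, and Aes, Gm6416, Crct1, 1700097N02Rik, Aplp1 and Slc39a5 below. At the smaller gap, Tsc22d2 (0.585) and Cenpw (0.593) lay just inside and Hirip3 (0.58) and Wdr26 (0.578) just outside among genes above. Among genes below, Whrn (−0.586) and Chpt1 (−0.588) lay just inside and Fam159a (−0.58) and Plxnb3 (−0.577) just outside. Beside the 8 genes and the members of gene lists, the single genes named here were chosen from the 197 genes with a gap of at least 0.58 after their values were seen.

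The cell cycle list of 34 genes had 24 found on the 3 TAB arrays. Of these, 9 stood apart above on day 5 and 0 below, against 13.7% and 15.4% of all found genes. The median of day 5 minus the mean of days 3 and 7 was 0.80 in TAB and −0.10 in sham, beside 0.01 and −0.01 over all found genes. The TAB median is over the 24 genes, and the sham median is over the 14 of them found on all 6 arrays. Sham medians of the other lists, and over all found genes, likewise use only genes found on all 6 arrays. A second list, of 48 DNA replication genes, was written after values had been seen and supports nothing by itself. Of its 36 found genes, 22 stood apart above on TAB day 5 and 2 below. The median was 0.56 in TAB and 0.08 in sham (30 genes). Together the lists had 53 found genes, which gave 13 of the 56 genes above by at least 0.58 and none of the 141 below.

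The promoters of these replication genes are shown because their letters can be set beside the shared pattern. The sequences are from RefSeq, build GRCm38.p6, whose window runs from 250 bases before to 50 bases after each gene's start, and 38 of the 48 genes had an entry. The core letters of E2F sites, TTTCGCGC or TTTGGCGC, were searched on both strands. At least 1 of them was present in 12 of the 38 replication promoters (31.6%) and in 251 of 27025 promoters of all genes (0.929%). These counts describe letters and do not show binding. Stretches of 60 bases are printed 5′ to 3′ on the strand of the gene, with the matched letters in capitals.
Mcm5, chr8:75109334-75109393, plus strand: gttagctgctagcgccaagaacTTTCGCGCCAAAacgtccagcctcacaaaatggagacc
Mcm6, chr1:128359719-128359778, minus strand: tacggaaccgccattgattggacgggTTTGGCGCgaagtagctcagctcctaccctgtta
Uhrf1, chr17:56304102-56304161, plus strand: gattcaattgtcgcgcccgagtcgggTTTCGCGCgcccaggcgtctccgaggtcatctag
In Mcm5 a forward TTTCGCGC and a TTTGGCGC on the other strand overlap, and the stretch ends 116 bases before the gene's start. The stretch ends 14 bases before the start in Mcm6 and 152 bases before it in Uhrf1.

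Among the genes that load and run the replication helicase, Cdt1 read 7.21, 7.97 and 7.34 on TAB days 3, 5 and 7. Cdt1 brings the MCM ring onto DNA, and its 5 sham arrays lay between 5.57 and 6.25. The MCM subunits Mcm3, Mcm4 and Mcm7 had gaps of 0.64, 0.75 and 0.70, and Mcm6 (0.55) and Mcm5 (0.43) stood apart above by less. Mcm4 read 8.37, 9.12 and 8.20 on TAB days 3, 5 and 7 and 7.28, 7.64 and 7.51 on the sham days. Mcm2 read 6.55, 7.02 and 5.83 in TAB, highest on day 5 but not apart by the rule. All 5 MCM subunits that stood apart had their TAB day 5 value above every sham array.

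The helicase activators Cdc45, Cdc7 and Mcm10 had gaps of 0.66, 0.68 and 0.60. Cdc7, a kinase that fires origins, was found on none of the 3 sham arrays of these days. Among the enzymes that finish the copied strand, Lig1, the ligase that joins Okazaki fragments, read 8.46, 9.23 and 8.27 on TAB days 3, 5 and 7. Its 5 sham arrays lay between 6.55 and 7.21, so TAB days 3, 5 and 7 were all above sham and day 5 the farthest. Fen1, which trims the fragments, read 8.57, 9.18 and 8.45 in TAB. Uhrf1, which carries DNA methylation to the new strand, read 6.09, 7.22 and 6.27, and its spot was found on no sham array of days 3, 5 and 7.

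Genes of mitosis had gaps of similar size. Aurkb, the kinase of the chromosomal passenger complex, read 7.28, 8.24 and 6.79 on TAB days 3, 5 and 7 and 6.58 and 5.98 on days 14 and 28. Its 5 sham arrays lay between 5.41 and 5.72, so every TAB day was above sham and day 5 the highest. Incenp, the scaffold of the same complex, read 7.53, 8.36 and 7.34. Bub1b, a spindle checkpoint kinase, read 6.18, 7.12 and 5.37, and its spot was found on all 5 TAB arrays and on none of the 5 sham arrays. Plk1, a kinase needed through mitosis, had a gap of 0.81. Fbxo5, an inhibitor of the anaphase-promoting complex, had a gap of 0.97, and the motor proteins Kif2c and Kif4 had gaps of 0.65 and 0.71. Kif4 no longer stood apart in 4 of the 7 settings that held it, median scaling alone and normalization within each operation among them. The centromere genes Cenpk and Cenpw had gaps of 0.61 and 0.59.

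Other genes of the cell cycle list were nearly as high on day 3 as on day 5. Prc1 read 9.91, 10.04 and 8.01 on TAB days 3, 5 and 7, and Birc5 read 8.03, 8.26 and 7.13. For 13 of the 24 found genes it was day 7 that stood apart, below the earlier days, as for 2135 of the 11210 found genes. The median distance of the list from the sham mean was 2.29 on TAB day 5, against 1.68 and 1.16 on days 3 and 7, and it was 0.65 and 0.48 on days 14 and 28. The log2 summed intensity of the found genes was 13.0, 13.3 and 12.4 on TAB days 3, 5 and 7 and 12.1 to 12.2 on the sham days. The summed level was thus highest on day 5 in TAB, while in sham it includes spots not found.

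MHC class II genes make the molecule that displays peptides to helper T cells. A list of 11 of them, also written after values had been seen, had 7 found on the 3 TAB arrays, of which 6 stood apart above on day 5 and 0 below, beside 13.7% and 15.4% of all found genes. The median of day 5 minus the mean of days 3 and 7 was 0.66 in TAB and −0.59 in sham. H2-Aa, the alpha chain, read 13.00, 14.03 and 13.37 on TAB days 3, 5 and 7, and 13.06, 12.16 and 12.43 on the sham days. H2-Ab1, its beta chain, read 8.93, 9.73 and 8.92 in TAB and 9.15, 7.80 and 8.20 in sham. Sham day 3 was thus as high as TAB day 3 for both chains, and on days 5 and 7 TAB lay above sham.

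Cd74, the invariant chain that escorts class II molecules, read 9.03, 10.21 and 9.45 on TAB days 3, 5 and 7. Of its other probes, one read 9.28, 10.45 and 9.76 and another 8.58, 8.27 and 8.73, so the probes of Cd74 disagreed on direction. H2-Eb1, a further beta chain, read 11.62, 12.24 and 11.54, and its other probe read 5.56, 5.78 and 5.51. H2-DMa and H2-DMb1, which load the peptides, had gaps of 0.43 and 0.31. Over all 197 genes with a gap of at least 0.58, 22 had 26 other probes found on the 3 arrays. Of these probes, 15 lay outside days 3 and 7 on the same side, 11 stood apart the same way, 2 the opposite way, and 1 by at least 0.58.

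The class II promoters are shown for the same reason as those above, with the Y box CTGATTGG in capitals. It was present in 4 of 8 class II promoters with an entry and in 4.7% of all 27025 promoters, searched on both strands.
H2-Aa, chr17:34287841-34287900, minus strand: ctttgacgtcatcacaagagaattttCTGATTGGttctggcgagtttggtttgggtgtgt
H2-Eb1, chr17:34305779-34305838, plus strand: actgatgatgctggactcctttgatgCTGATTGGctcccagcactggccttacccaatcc
The stretches end 18 and 29 bases before the gene's start. The same letters were in 7 of the 38 replication promoters.

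Markers of other immune cells gave smaller differences on day 5. Of 19 found monocyte and macrophage markers, 5 stood apart above and 1 below (13.7% and 15.4% over all found genes), with a median of 0.23 in TAB and −0.14 in sham, and 18 of them lay above all sham arrays on TAB day 5, as did 3668 of the 11210 found genes. The log2 summed intensity of these markers was 15.0, 15.3 and 15.1 on TAB days 3, 5 and 7 and 13.4 to 13.6 on the sham days. Laptm5, a lysosomal protein of leukocytes, read 11.57, 12.27 and 11.80 in TAB. For 11 of the 19 it was day 3 that stood apart, below days 5 and 7, against 18.4% of all found genes. Of 5 found lymphocyte markers, 1 stood apart above and 1 below. The part of cell numbers in the class II values was not tested.

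Of 7 found neutrophil markers, 4 stood apart above on TAB day 5 and 0 below (13.7% and 15.4% over all found genes), with a log2 summed intensity of 9.35, 9.92 and 10.2 on TAB days 3, 5 and 7 and about 9.0 in sham (8.97, 9.02 and 8.98). Only 4 of the 7 were found on all 6 arrays, so the sham level rests partly on spots not found. Retnlg, a secreted protein of neutrophils, read 6.30, 7.08 and 6.29 in TAB and 5.91, 3.95 and 5.55 in sham. Of 13 found inflammatory cytokines and chemokines, 5 stood apart above and 2 below, with a median of 0.22 in TAB and −0.22 in sham (7 genes). Il1b, which encodes interleukin-1β, read 6.98, 8.22 and 7.18 in TAB and 6.26, 2.20 and 5.96 in sham, where the day 5 spot was not found. Without that spot, TAB day 5 was still above the other 4 sham arrays, whose highest value was 6.26. Il6 read 5.62, 6.97 and 6.27 in TAB, and its spot was found on no sham array. The macrophage chemokines Ccl3 and Ccl4 had gaps of 0.49 and 0.36, whereas Ccl2 and Ccl7 were at 9.61 and 8.74 on day 5 and at 9.63 and 9.20 on day 7. Csf2rb, the common beta chain of the GM-CSF receptor family, had a gap of 0.70.

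**Figure D2:**
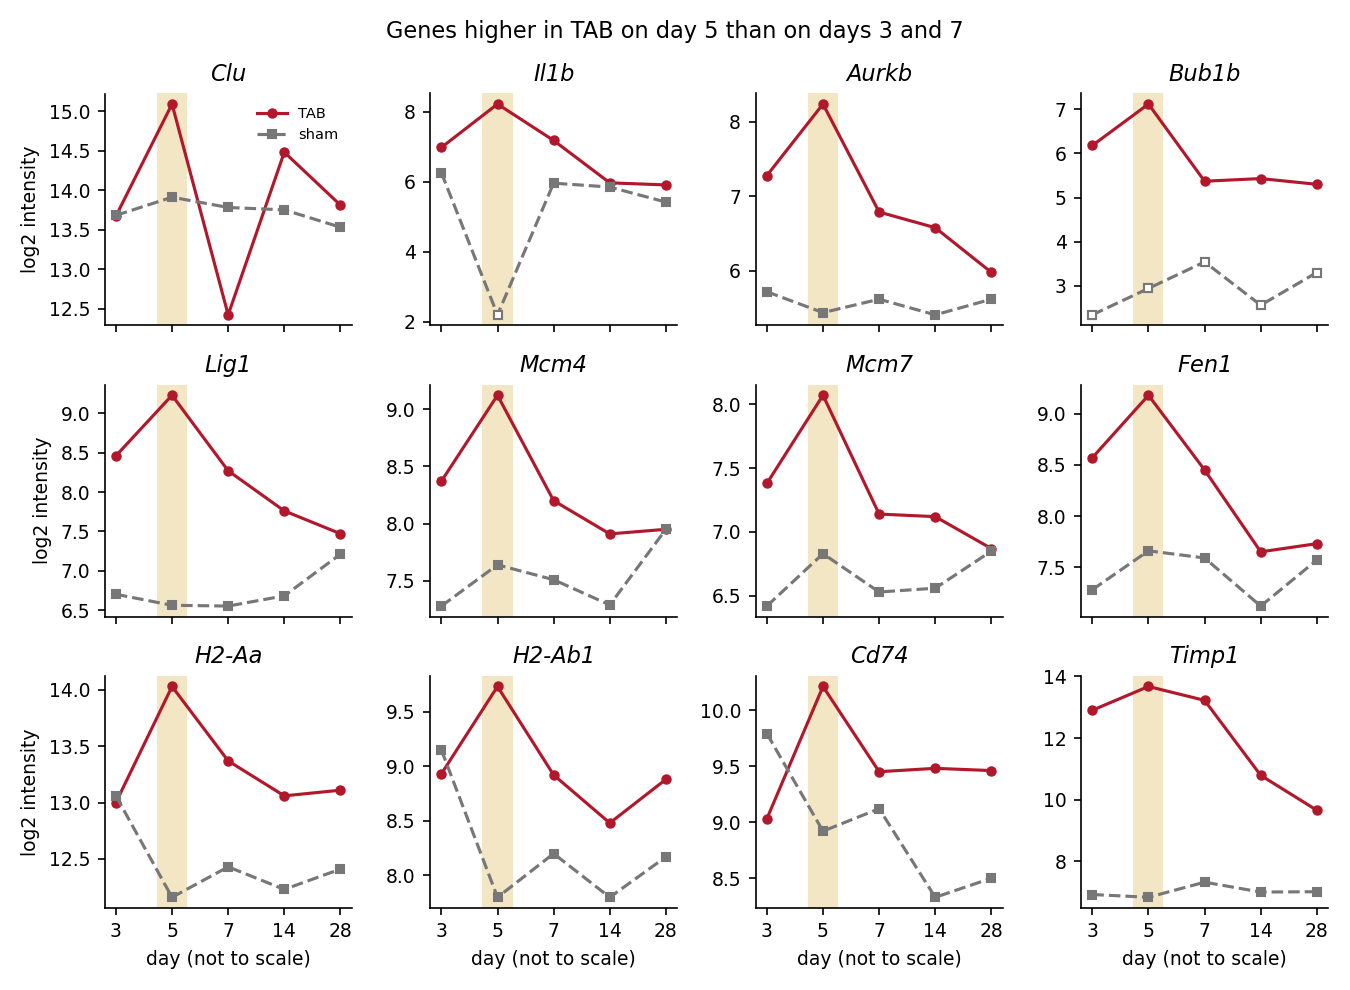
Log2 normalized intensity of 12 genes in TAB (red circles) and sham (grey squares) on days 3, 5, 7, 14 and 28, each point 1 array, with day 5 shaded, days not to scale and open symbols for spots not found. The TAB line of each gene peaks on day 5 among days 3, 5 and 7, for example at 8.24 for Aurkb and 14.03 for H2-Aa.

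Clu encodes clusterin, a secreted chaperone, and had the largest gap above the neighbouring days of a gene found on all 3 TAB arrays, 1.41 (2.66-fold). It read 13.67, 15.09 and 12.42 on TAB days 3, 5 and 7, with 14.48 and 13.81 on the 2 later days. The 5 sham arrays lay between 13.53 and 13.91. TAB day 5 was therefore above and TAB day 7 below every sham array, and days 5 and 7 were 2.66 apart on the log2 scale.

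Extracellular matrix genes were far above sham on all 3 days, and day 5 added little. Of 24 found genes, 9 stood apart above on TAB day 5 and 0 below, against 13.7% and 15.4% of all found genes, and the largest gap was 0.45, for Timp1. The median distance of the list from the sham mean was 3.13 on TAB day 5, against 2.72 and 3.17 on days 3 and 7. All 24 lay above every sham array on day 5, as did 3668 of the 11210 found genes. Timp1, an inhibitor of matrix proteases, read 12.90, 13.67 and 13.22 in TAB against 6.84 to 7.33 in sham. Postn, a matrix protein of activated fibroblasts, read 13.81, 14.08 and 13.98, and Col3a1 read 9.42, 9.37 and 9.17, and neither stood apart. Fibroblast markers themselves had 1 of 9 above and 2 below.

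Other matrix-related genes with larger gaps were not on that list. Wisp1, a matricellular signalling protein, read 7.68, 8.35 and 7.72 on TAB days 3, 5 and 7, and its spot was found on no sham array. Enpp1, which makes pyrophosphate, read 7.37, 8.06 and 7.34. Plod2, which hydroxylates collagen lysines, read 7.38, 8.18 and 7.57, and Cd109, a membrane protein that binds TGF-β, read 5.75, 6.64 and 6.03. The other probe of Cd109 read 6.30 on TAB day 3 and 6.49 on day 7, and on day 5 it lay 0.11 above the higher of these and did not stand apart. Klhl38 (0.75) and Mamdc4 (0.96) had gaps of similar size, but Klhl38 lay below every sham array on day 5, at 7.65 against 7.69 to 8.93.

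Of 19 found fatty acid oxidation genes, 9 stood apart below on TAB day 5 and 1 above (15.4% and 13.7% over all found genes), with a median of day 5 minus the mean of days 3 and 7 of −0.22 in TAB and −0.01 in sham. Their median distance from the sham mean was −0.85 on TAB day 5, against −0.52 on each of days 3 and 7. A list of 28 PPAR target genes, written after values had been seen, had 22 found, with 12 below and 1 above, beside the same shares, and medians of −0.40 in TAB and −0.02 in sham. Of these 22, 15 were below every sham array on day 5 and 0 above, beside 3641 and 3668 of the 11210 found genes.

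Pdk4, the kinase that holds back glucose oxidation, read 11.96, 10.91 and 11.70 on TAB days 3, 5 and 7 and 11.96, 12.53 and 11.72 on the sham days. TAB and sham were thus nearly equal on days 3 and 7, and on day 5 TAB minus sham was −1.62. The sham values of Pdk4 themselves ranged from 10.33 to 12.53, and TAB day 5 lay within that range. Ucp3, a mitochondrial carrier, read 7.10, 6.08 and 6.85, and Acot1, a thioesterase of acyl-CoA, read 7.39, 6.43 and 7.54. Acot1 was more than 1 below the lowest sham array, 8.55, on each of these TAB days.

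Angptl4, a secreted inhibitor of lipoprotein lipase, read 10.27, 9.37 and 10.94 in TAB and 10.53, 8.69 and 8.06 in sham. It was low on day 5 against its TAB neighbours and yet 0.68 above sham of day 5. Among the enzymes of the beta-oxidation spiral, Eci1 read 11.78, 11.13 and 11.55 and Acadl read 14.01, 13.68 and 14.28. Acadm, the medium-chain dehydrogenase, read 14.03, 13.82 and 14.26 and Cd36, the fatty acid transporter, read 9.56, 9.30 and 9.99, both lowest on day 5 but not apart by the rule. Acadvl and Cpt1a, the entry enzyme of mitochondrial import, were not lowest on day 5, at 13.60 and 7.68. Ppara, which encodes the receptor, read 7.80, 7.98 and 8.38, all below its lowest sham value of 8.79.

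Further genes of fuel handling were below their neighbours by at least 0.58. Aqp7, a glycerol channel, read 9.60, 8.87 and 9.47, Acat1, a thiolase of ketone body use, read 7.06, 6.46 and 7.15, and Pdk1 read 8.01, 7.35 and 8.07. Of 33 found respiratory chain genes, 10 stood apart below and 1 above (15.4% and 13.7% over all found genes), with a median of −0.14 in TAB. In sham, 10 of the 33 also stood apart below on day 5 and 3 above, with a median of −0.03. The shares over genes found on the 3 sham arrays were 15.6% below and 17.2% above. The largest gap of the list was that of Cox7a1, which read 11.50, 10.86 and 11.42 in TAB against 12.21 to 12.54 in sham. With median scaling alone the count below in TAB was 15.

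A form of the PPAR response element, AGGNCA repeated after a spacer of 1 base, with N for any base, was found on neither strand of the 20 PPAR target promoters with an entry. It was present in 0.451% of all promoters. Absence from this window says nothing about the receptor.

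**Figure D3:**
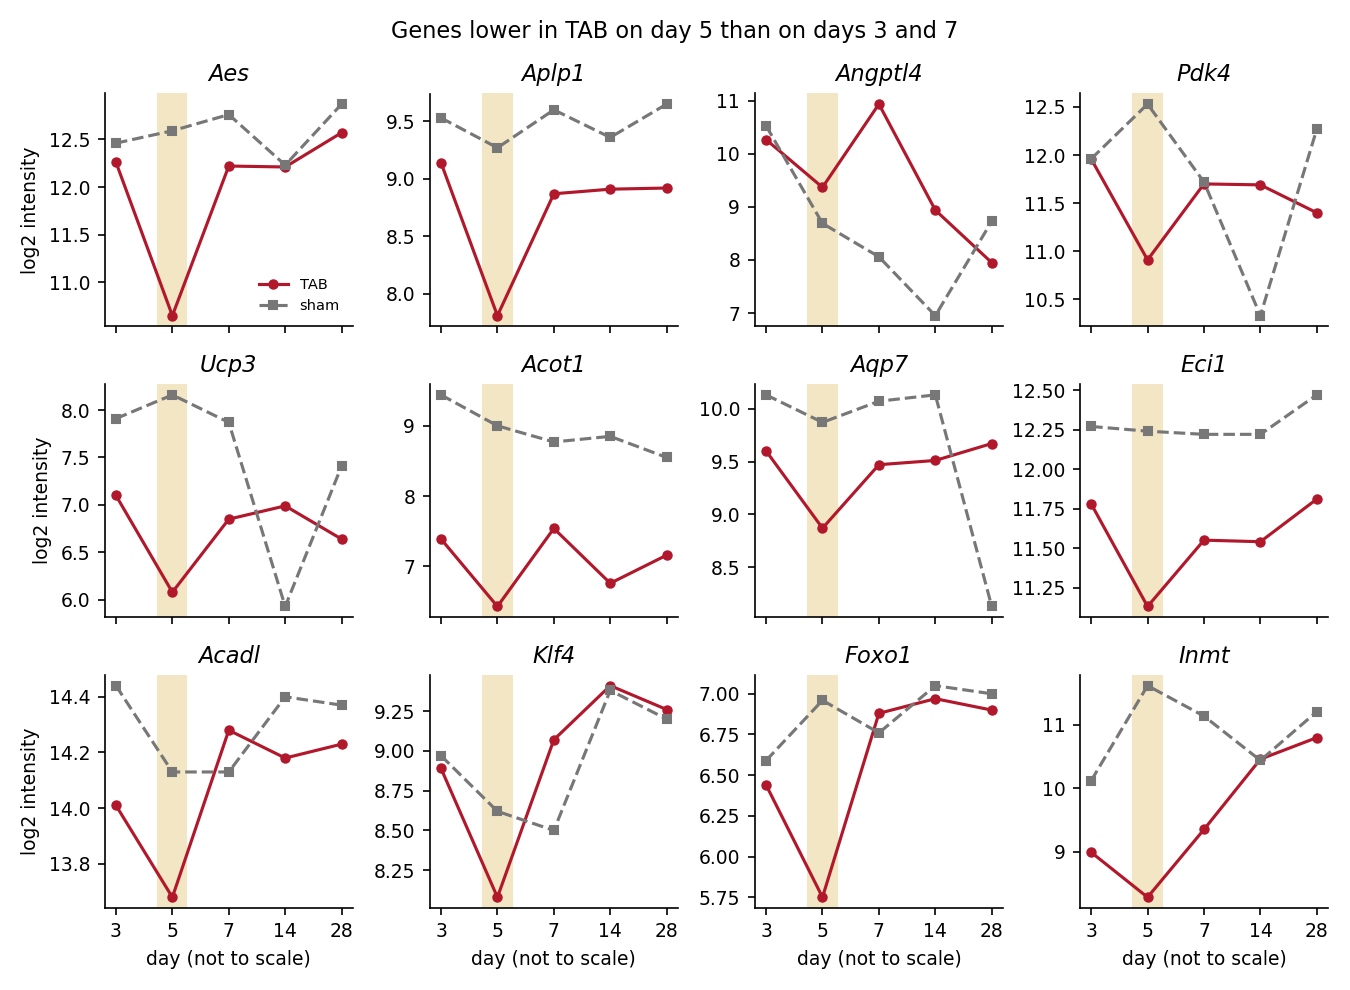
Log2 normalized intensity of 12 genes in TAB (red circles) and sham (grey squares) on days 3, 5, 7, 14 and 28, each point 1 array, with day 5 shaded and days not to scale. The TAB line of each gene dips on day 5 between days 3 and 7, for example to 10.91 for Pdk4 and 6.43 for Acot1.

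Several regulators were below their neighbours on TAB day 5. Klf4, an immediate early transcription factor, read 8.89, 8.08 and 9.07 in TAB and 8.97, 8.62 and 8.50 in sham. Foxo1, a factor of the insulin response, read 6.44, 5.75 and 6.88, and Id1, an inhibitor of basic helix-loop-helix factors, read 11.68, 11.05 and 11.64. Sox7, an endothelial factor, had a gap of −0.66. Cdkn1c, which encodes the cell cycle inhibitor p57, read 9.84, 9.15 and 9.82 against 10.18 to 10.81 in sham. Tyk2, a kinase of cytokine receptors, had a gap of −0.81 and Dck, which phosphorylates deoxycytidine, one of −0.80. Of 20 found immediate early genes, 3 stood apart below and 0 above (15.4% and 13.7% over all found genes). The list was thus near the share below, and Klf4 was its only member below by at least 0.58.

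Single genes of ion channels and of smooth muscle were among those below, the channel genes picked after their values were seen. Scn4b, a sodium channel subunit, read 7.39, 6.71 and 7.30, and the potassium channel subunit Kcnv2 had a gap of −0.68. Myh11, the smooth muscle myosin heavy chain, read 10.34, 9.59 and 10.36. Of the 7 found smooth muscle and pericyte markers, 1 stood apart below, which was Myh11, and 0 above, with a median of 0.02. Inmt, a methyltransferase, read 8.99, 8.28 and 9.35 in TAB against 10.12 to 11.62 in sham, the farthest below sham of these genes on day 5, by 3.33.

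Of the 6 genes with a gap of at least 1 below, Aes had the largest. Aes, a corepressor of the Groucho family, read 12.26, 10.65 and 12.22 on TAB days 3, 5 and 7 and 12.23 to 12.87 on the sham arrays. Its other probe read 11.75, 11.43 and 11.46 and did not stand apart, so the probes of Aes disagreed on this. Aplp1, a relative of the amyloid precursor protein, read 9.14, 7.81 and 8.87 and lay below every sham array on day 5. Crct1 read 10.66, 9.26 and 10.50 and was still above all sham arrays, whose highest value was 7.14. Gm6416 read 6.02, 4.56 and 6.12, 1700097N02Rik read 6.02, 4.77 and 5.93 and Slc39a5, a zinc transporter, read 5.59, 4.38 and 5.44. These last genes were dim on day 5, with normalized intensities of 24, 27 and 21.

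Some genes had found spots on 1 side of the comparison only, and for these a bound on the fold was computed. The dim side was set on each array to the lowest intensity of any found spot there, or to the spot's own value where that was higher. Unlike the gap, the bound compares day 5 with the mean log2 value of days 3 and 7. A spot not found can be bright: that of Ppap2a on TAB day 3 had 6.44, where the lowest found spot had 0.79. The bounds are therefore not firm lower limits and hold only if the dim spots were read rightly. In TAB, 466 genes had spots found on day 5 and on neither day 3 nor day 7, and 201 of them had a bound of at least 2-fold. The reverse held for 109 genes, 75 of them with a bound of at least 2-fold. In sham these numbers were 192 (110) and 309 (121). For the largest bound in each direction, the arrays outside TAB days 3, 5 and 7 all lay close to the brighter side.

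Ppap2a, a lipid phosphatase, had a bound of 14.5-fold above the mean of days 3 and 7, with 6.44 on day 3 and 4.26 on day 7. Its spot was found on the other 7 arrays at 8.59 to 9.17, close to the 9.21 of TAB day 5. Nudt19 had a bound of 228-fold below the mean of days 3 and 7, and its value was between 10.16 and 10.53 on all 9 other arrays. Foxj1 (bound of 66.4-fold below) and Dpp7 (bound of 15.9-fold below) were not found on sham day 5 either. Spred2, an inhibitor of growth factor signalling, had a bound of 51.6-fold below and Il6ra, the receptor chain for interleukin-6, one of 12.6-fold below. Above, Col4a6, Trpc5, Foxm1 and Scarna17 followed, with bounds of 10.7, 8.18, 5.99 and 5.95. Foxm1, a transcription factor of mitotic genes, was found on TAB day 5 and on no other array.

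The size of the difference between TAB and sham was then compared over the days. For each of days 3, 5 and 7, genes found on TAB days 3, 5 and 7 were chosen that differed from the mean of the 5 sham arrays by at least 1 in the same direction on both other days. On day 5, 468 of 824 such genes (56.8%) were farther from sham than on both other days, and 16.7% were nearer. On day 3, 117 of 945 (12.4%) were farther and 56.9% nearer, and on day 7, 188 of 950 (19.8%) were farther and 52.1% nearer. The SD over genes of the difference from the sham mean was 0.80 on TAB day 5, against 0.724 and 0.728 on days 3 and 7.

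The order was the same with genes chosen on days that the comparison does not use. The 240 genes that differed by at least 1 the same way on days 14 and 28, 225 raised and 15 lowered, were farthest from sham on day 5 in 130 cases (54.2%), on day 7 in 79 (32.9%) and on day 3 in 31 (12.9%). The median size of the raised genes was 2.54 on day 5, against 2.24 and 2.29 on days 3 and 7. That of the lowered genes was 1.04 on day 3 and 1.24 on day 7, and on day 5 it was practically that of day 7. Against the sham array of the same day in place of the mean, the shares for day 5 were 49.9% and 53.7%. The former share was 54.7% for raised and 28.4% for lowered genes, against 57.6% and 51.0% with the sham mean. With genes chosen on days 14 and 28, median scaling alone gave 49.1% and probes found on 6 arrays 48.8%. All these shares use the same TAB arrays and, except for those against the sham array of the same day, the same sham mean. Genes of 1 array are not independent, and no test was made. In each of these settings day 5 had the largest share of farther genes of the 3 days.

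**Figure D4:**
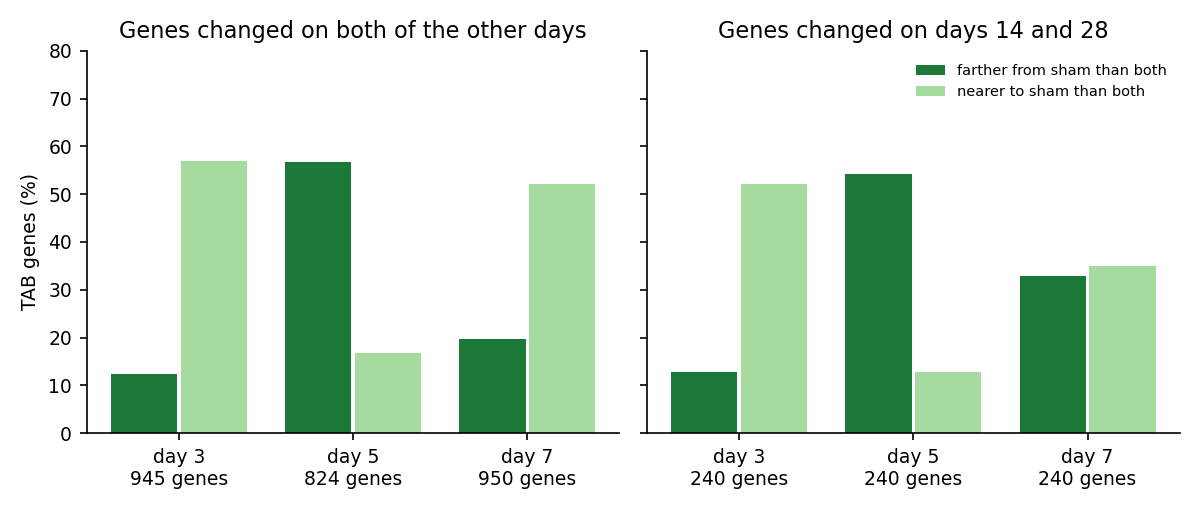
Share of changed genes (%) that on day 3, 5 or 7 of TAB were farther from the mean of the 5 sham arrays than on both other days (dark green) or nearer (light green), for genes changed by at least 1 on the log2 scale on both of the other days (left) and on days 14 and 28 (right). Day 5 had the largest share of farther genes, 56.8% on the left and 54.2% on the right.

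Genes of the cardiomyocyte and fetal lists stood apart on day 5 about as often as all found genes (13.7% above, 15.4% below). Of 20 found cardiomyocyte genes, 2 stood apart above and 3 below, with a median of −0.05, and their log2 summed intensity was between 18.6 and 18.7 on all 6 arrays. Of 10 found genes of the fetal programme, which the loaded ventricle switches back on, 1 stood apart above and 2 below. Nppa read 14.81, 15.02 and 15.12 and Nppb 14.44, 14.16 and 14.40 on TAB days 3, 5 and 7, both above their sham values of the same days. Acta1, the skeletal alpha-actin, read 13.64, 13.82 and 13.81. Of the 5 found atrial markers, 3 stood apart below and 0 above, with a median of −0.36 in TAB and −0.04 in sham. Their summed level was 12.5, 12.3 and 12.7 in TAB and 12.3 to 12.9 in sham. Of the 8 thymus and lung markers, 5 were in the table and 0 were found on all 3 TAB arrays.

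For some lists it was day 3 that stood apart in TAB. Of 14 found interferon-induced genes, 13 stood apart below on day 3, against 18.4% of all found genes, and none stood apart on day 5. Of 15 found circadian clock genes, 12 stood apart on day 3 (4 above, 8 below) and 3 on day 5. Over all found genes the shares were 36.9% on day 3 and 29.1% on day 5. Arntl, which encodes the clock factor BMAL1, read 9.76, 6.88 and 7.32 on TAB days 3, 5 and 7 and 9.87, 5.66 and 6.23 on the sham days. Dbp, one of its targets, read 8.08, 11.49 and 11.54 in TAB and 8.02, 11.50 and 12.52 in sham. Arntl and Dbp thus set day 3 apart from days 5 and 7 in both operations. Clock itself did not in sham, where it read 8.51, 7.64 and 8.18. The hour at which hearts were taken is not given in the sources used here, and its part in the gaps was not tested.

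Of 10 found reference genes, which are commonly used to scale expression, 3 stood apart above on TAB day 5 and 0 below. The shares over all found genes were 13.7% and 15.4%. The median of the reference genes was 0.16 in TAB and −0.08 in sham. Actb read 13.96, 14.30 and 13.76 in TAB and 12.67, 12.11 and 12.50 in sham. Of 18 genes that the text of the study names, most of them for its early days, 11 were found. Beside the same shares, 3 stood apart above (Il6, Vdr and Tgif1, with gaps of 0.70, 0.34 and 0.26). Below were 2 (Egr1 and Fgf8, with −0.22 and −0.30). The study chose these genes on the same samples, so the count is no independent evidence. Egr1, an immediate early factor, read 11.22, 11.01 and 11.30 on TAB days 3, 5 and 7 and 11.13, 9.34 and 11.01 in sham. Its day 5 difference from sham of 1.66 thus came with a low sham value and not with a high TAB value.

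**Figure D5:**
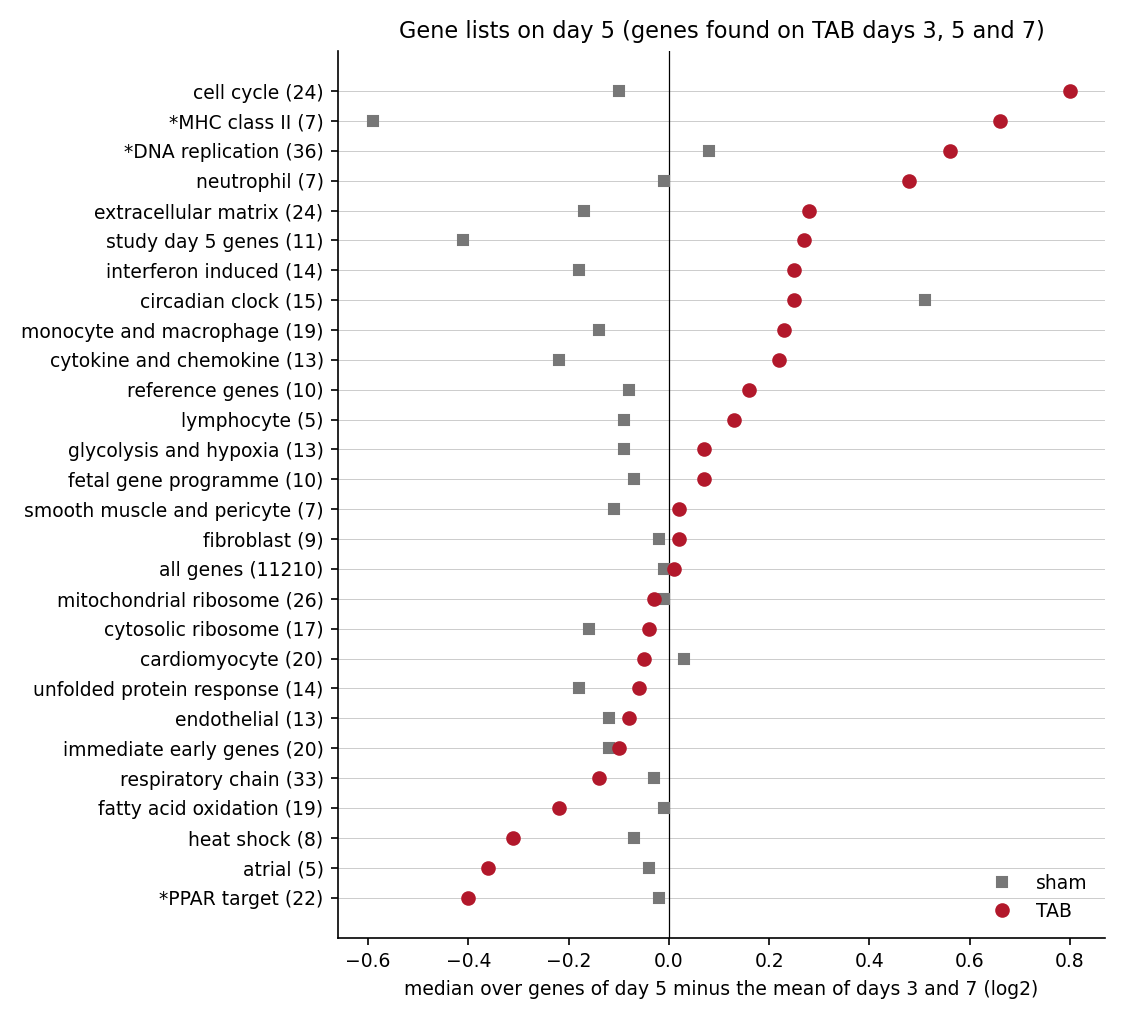
Median over the genes of each list of day 5 minus the mean of days 3 and 7 on the log2 scale. Red circles are TAB and grey squares are sham. Lists with at least 5 genes found on TAB days 3, 5 and 7 are shown (number in brackets). The sham median uses only those of the genes that were also found on sham days 3, 5 and 7. All lists were chosen with earlier results of these data known, and those marked with an asterisk after the values plotted here had been seen. Cell cycle lies farthest to the right in TAB, at 0.80, and PPAR target farthest to the left, at −0.40.

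Over all genes found on the 3 arrays of an operation, day 5 lay between days 3 and 7 for 4127 genes in TAB (36.8%) and for 33.2% in sham. The SD of the log2 differences was 0.353 between TAB days 3 and 5, 0.323 between days 5 and 7, and 0.375 between days 3 and 7. In sham these SDs were 0.391, 0.288 and 0.338. TAB day 5 was therefore nearer to day 7 than to day 3, as was sham day 5.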

How the data were processed

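The authors deposited unscaled, background-subtracted intensity values of every probe on 10 single-colour Mouse Whole Genome OneArray slides (Agilent scanner, GenePix software), together with spot flags. Deposited detection p-values and 10 further columns of values were not used. Gene counts exclude 3633 of the 26423 probes, which have no symbol. In the order of the study's methods, arrays were scaled to a common median, 6447 probes below 1 on any array were removed, the 19976 others were quantile normalized over all 10 arrays (rank medians) and log2 transformed, and a gene with several probes was represented by the one whose absolute log2 TAB/sham ratios had the highest sum. This gave 16113 genes. The study describes rank medians for each condition, and normalization within each operation was an alternative. Saturation (65000 or more, raw) affected 1 to 3 spots per array. The TAB day 14 sample carries 1 label that says 15 days.

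The rule on day 5 uses no test. The limma 3.58.1 fit (R 4.3.3, trend and robust off, Benjamini-Hochberg at 0.05) had 4 groups and 2 residual degrees of freedom, and the rule and the fit were tested on simulated data. With large changes added to TAB day 5 alone, limma recovered only part of them in the TAB contrast and none in the difference between operations, so its low counts of calls say little. The members and gene lists were chosen with earlier results of these data known. Named genes were the 15 largest gaps of at least 1 in each direction among genes found on the 3 TAB arrays without the same gap of 0.5 in sham (8 genes), the 5 largest bounds each way, and list members, and others are marked as chosen after seeing values. The number of arrays limits precision. Some genes are not reported here.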

Additional observations from a re-analysis of the deposited data

Results flagged for a closer look

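Among the 64 genes named for a TAB gap of at least 0.58, 8 stood apart on day 5 in the opposite direction in sham by a log2 gap of at least 0.5. This is a comparison of 3 arrays with 3, and the difference was not tested. Over all 16113 genes, with at least 0.58 in both operations, 45 of 446 above and 32 of 689 below lay opposite in sham. In that count 30 of the genes above and 61 of those below lay the same way in sham. Above in TAB and below in sham were Il1b (log2 gap 1.04 in TAB and −3.77 in sham), Kif4 (0.71 and −0.89), Mcm10 (0.60 and −0.81), Csf2rb (0.70 and −0.51), Retnlg (0.79 and −1.60) and Cd109 (0.61 and −0.57). Below in TAB and above in sham were Pdk4 (−0.79 and 0.57) and Tmem82 (−0.74 and 1.06). The spots of Pdk4 and Tmem82 were found on all 10 arrays. Those of Il1b, Kif4, Mcm10, Csf2rb and Retnlg were not found on sham day 5, and that of Cd109 was found on no sham array of days 3, 5 and 7, so the sham gaps of these 6 genes include values near background.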

How the results depend on the processing

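No paired analysis was possible by replicate because the labels carry no replicate numbers, each operation and day has 1 sample, and TAB and sham share only the day. A fit with the day as a block was not run. TAB kept the order of day 3, day 7 and day 5 by share of genes standing apart in all 10 settings, with day 5 between 28.6% and 30.6%. Without the dimmest tertile of genes, 3074 genes stood apart on TAB day 5. The count with a gap of at least 1 was the least stable. In TAB and sham it was 9 and 35 with 50 added to the intensity, 1377 and 1541 with probes below 1 set to 1, 7 and 49 with probes found on all 6 arrays of days 3, 5 and 7, and 22 and 74 without the dimmest tertile. Limits of 0.58 and 2 gave 1135 and 1230, and 49 and 56. With 50 added, the 56 and 141 found genes with a gap of at least 0.58 became 18 and 44, and without the dimmest tertile the 56 became 37. Limma called 4, 3 and 3 genes (TAB, sham, difference) with 50 added, 3, 0 and 1 with probes below 1 set to 1, 4, 5 and 4 without the dimmest tertile, 6, 8 and 5 with trend and robust on, and 3, 4 and 3 with all 10 arrays. In sham it called 2 with the brightest probe, 0 with the mean of all probes and 0 with probes found on 6 arrays. Leaving out any 1 array of days 3 and 7 gave 0 to 0 calls for all 3 contrasts. The share of changed genes farthest from sham on TAB day 5 lay between 49.9% and 60.1%, and between 48.8% and 57.5% with genes chosen on days 14 and 28. The 64 genes named for their gap lay outside both neighbours the same way in every setting that held them, but in 7 of 9 settings 1 of them no longer stood apart. This was Kif4 with median scaling alone, normalization within each operation, rank means or probes below 1 set to 1, Cd109 with the brightest probe or probes found on 6 arrays, and Cd74 with the mean of all probes. The causes were not tested. Settings for the share of changed genes, for the other days and for the 0.58 counts, and the other probes, were chosen after seeing the data.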
